A study of Mus musculus with 39 samples.

Results

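The 10 libraries described here came from tumours of mice in the CZA arm of a study of faecal microbiota transplantation (FMT) and PD-1 blockade. They were the 5 anti-PD-1 libraries (T982, T984, T988, T989 and T990) and the 5 isotype libraries (T983, T985, T986, T987 and T991) of that arm, chosen by their titles, out of 39 libraries in all. All 10 came from wild-type C57BL/6 mice that had received FMT from HV stools treated with CZA for 6 days, and that were implanted under the skin with MCA-205 cells 2 weeks later. MCA-205 is a fibrosarcoma cell line that grows in C57BL/6 mice. Once tumours measured 25 to 35 mm2, one group was given an antibody against PD-1 (250 µg a mouse, 4 injections into the peritoneum, 3 days apart) and the other an isotype control antibody on the same schedule. Tumours were taken 2 days after the last injection. CZA and HV are not spelled out in the labels, and no mouse without FMT is among the samples, so the comparison is between 2 antibodies in mice that all carried CZA-treated stools. For context, 9 libraries with the same tissue label came from mice whose FMT stools had been treated with CZA+DAV132 (5 anti-PD-1 and 4 isotype), and 20 libraries came from CD8+ T cells sorted from tumours in a repeat of the experiment. Nothing in the labels ties a library to its own mouse, so p-values measure the spread between libraries.

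PD-1, encoded by Pdcd1, is an inhibitory receptor that T cells display after they are activated. When its ligands on tumour or myeloid cells bind it, signalling through the T cell receptor and its co-receptors is dampened. Antibodies that block it are used to release T cells already in a tumour, and response to them in mice is known to vary with the gut microbiota. In such tumours the transcripts usually read are those of T cell identity, of killing (granzymes, perforin), of activation and exhaustion, of interferon response, and of the myeloid cells and fibroblasts that surround the tumour cells.

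The measured values are TPM, which divide each gene's estimated reads by its length and scale each library to the same total. The deposited genes summed to between 983060 TPM (T984) and 991092 TPM (T983) in the 10 libraries, so these sums were near each other but not equal. The files hold no read counts, so the depth of each library is unknown. In each sentence below that lists values, libraries stand in the order of their numbers as given above. The label "tumour bulk" was set against marker genes first. Every one of the 10 libraries held abundant T cell transcripts. Cd8a, a chain of the CD8 co-receptor, was at 390.1, 423, 374, 363 and 338 TPM in anti-PD-1 libraries, against 371, 272, 206, 307 and 363 TPM in isotype libraries. Cd4, the co-receptor of helper T cells, was at 2.52, 2.09, 1.98, 1.33 and 1.31 TPM in anti-PD-1 libraries, against 6.58, 1.22, 1.47, 0.116 and 0.633 TPM in isotype libraries. Markers of the fibrosarcoma and its stroma did not all stand on the same side of Cd8a. The collagen gene Col1a1 was at 9.43, 13.0, 11.6, 9.46 and 40.8 TPM in anti-PD-1 libraries. In isotype libraries Col1a1 was at 30.3, 26.1, 431, 5.39 and 7.86 TPM. S100a4, of the same fibroblast and fibrosarcoma list, was at 1077 to 1643 TPM in anti-PD-1 libraries and 706 to 1025 TPM in isotype libraries. S100a4 was above Cd8a in each of the 10 libraries, and the cells it came from cannot be told from these values. Fn1, also of that list, was at 0.240 to 8.62 TPM in anti-PD-1 libraries and 0.821 to 31.6 TPM in isotype libraries. Each Fn1 value was below Cd8a in the same library. The keratin Krt14 was listed at 0 in 9 of the 10 libraries, Foxp3 in 7, and the addressin gene Madcam1 in all 10. Cd8a was thus above Col1a1 in 9 of the 10 libraries, the exception being T986. Vim, the intermediate filament gene of mesenchymal cells and of leukocytes, made the largest part of the fibroblast list, 36.5% of its sum. The share of tumour cells in these libraries was not tested, the extraction protocol speaks of RNA from cells, and the libraries are called libraries labelled bulk tumour. A lower number of cells of a type and less RNA per cell cannot be told apart in such data.

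Single libraries stood apart in some measures. Repeat-rich gene entries took at most 0.405% of the TPM in an anti-PD-1 library (T988), against 13.4% in isotype library T985 and at most 0.0537% in the other 4 isotype libraries. T986 of the isotype group held the highest matrix transcripts, with Col1a1 at 431 TPM and Postn, which encodes periostin, at 511 TPM, and the other 9 libraries had Col1a1 of at most 40.8 TPM and Postn of at most 46.0 TPM. Mitochondrially encoded genes took 6.04% ± 0.55 of the TPM in the anti-PD-1 libraries and 5.89% ± 0.32 in the isotype libraries (SD, n = 5 each; exact permutation test, two-sided, p = 0.603). Cytosolic ribosomal protein genes took 7.44% ± 1.03 and 7.40% ± 0.58 in the same order (SD, n = 5 each; exact p = 0.992). The actin gene Actb alone took 11.7% ± 1.72 and 12.9% ± 2.19 in the same order (SD, n = 5 each, exact permutation p = 0.31). In the sorted CD8+ libraries of the CZA arm Actb took 0.287% to 0.699%. The cause of that distance from the sorted cells was not tested.

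Fewer genes were detected in the isotype libraries. At 1 TPM or more, the anti-PD-1 libraries held 11382, 12212, 10638, 11477 and 11443 genes, and the isotype libraries 10176, 10542, 10134, 9333 and 9840 genes. The lowest anti-PD-1 library, T988, was above the highest isotype library, T985, so the groups did not overlap. The mean was 11430 ± 558 genes in anti-PD-1 libraries and 10005 ± 451 genes in isotype libraries (SD, n = 5 each), a difference of 1425 genes with an exact permutation p of 0.00794, the smallest that 5 against 5 allows, and 0.0238 after Benjamini-Hochberg adjustment over the 9 library measures compared. At 5 TPM or more, the difference was 1012 genes with the same p. The size factor that median-ratio scaling gives a library, which is higher where most genes are higher, was 1.11 ± 0.0717 in anti-PD-1 libraries and 0.952 ± 0.0307 in isotype libraries (SD, n = 5 each; exact p = 0.00794, adjusted 0.0238). For genes listed at any value above 0 the means were 13862 ± 809 and 13059 ± 857 genes in the same order, and the ranges overlapped (SD, n = 5 each; exact p = 0.175). In the CZA+DAV132 arm the same count at 1 TPM was 11742 ± 324 genes in 5 anti-PD-1 libraries and 11258 ± 663 genes in 4 isotype libraries (exact p = 0.19). Whether the antibody difference itself differed between the arms was not tested. In the sorted CD8+ T cells of the CZA arm it was 11575 ± 135 genes in anti-PD-1 libraries and 11684 ± 308 genes in isotype libraries (SD, n = 5 each; exact p = 0.563).

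**Figure D1:**
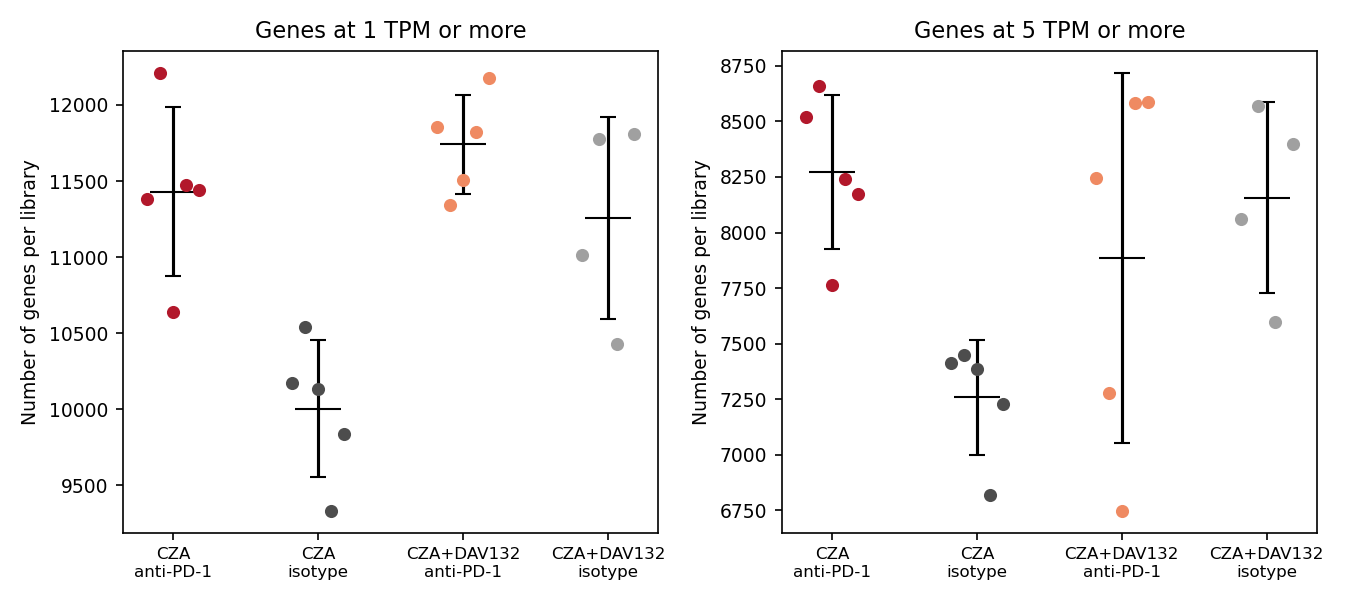
Number of genes at 1 TPM or more (left) and at 5 TPM or more (right) in each of the 19 libraries labelled bulk tumour, by group. Points are libraries, and black bars give the mean ± SD. The 5 CZA anti-PD-1 libraries lie between 10638 and 12212 genes at 1 TPM, all above the 5 CZA isotype libraries, which lie between 9333 and 10542.

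The share of genes listed at exactly 0 was then compared by level, a different measure from the counts at 1 TPM above. In both groups that share was largest among genes of low level. Genes were sorted by their mean level in the 9 CZA+DAV132 libraries, and those under 1 TPM there were left out. The values of these 9 libraries do not enter the CZA difference itself, though they enter the gene filter and the shared spread of the linear model below. Among 4298 genes between 5 and 20 TPM there, 4.07%, 1.16%, 4.33%, 1.95% and 2.58% were listed at 0 in the anti-PD-1 libraries, against 5.35%, 4.49%, 6.47%, 11.0% and 7.14% in the isotype libraries. The highest anti-PD-1 library stood below the lowest isotype library. Among 4041 genes between 1 and 5 TPM the medians were 17.1% in anti-PD-1 libraries and 25.8% in isotype libraries, and the ranges overlapped. From 20 to 100 TPM (3127 genes) the medians were 0.576% and 0.863%, and at 100 TPM and more (1047 genes) 0.191% and 0.669%, in the same order. Isotype library T987 had the highest share in 3 of the 4 level ranges, and T991 in the range of 100 TPM and more. Over the 13326 genes tested, 624 were above 0 in all 5 anti-PD-1 libraries and listed at 0 in 2 or more isotype libraries, and 65 showed the reverse. A value of exactly 0 among genes of this level can be a failed estimate, and whether the deposited zeros are absent transcripts was not tested.

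**Figure D2:**
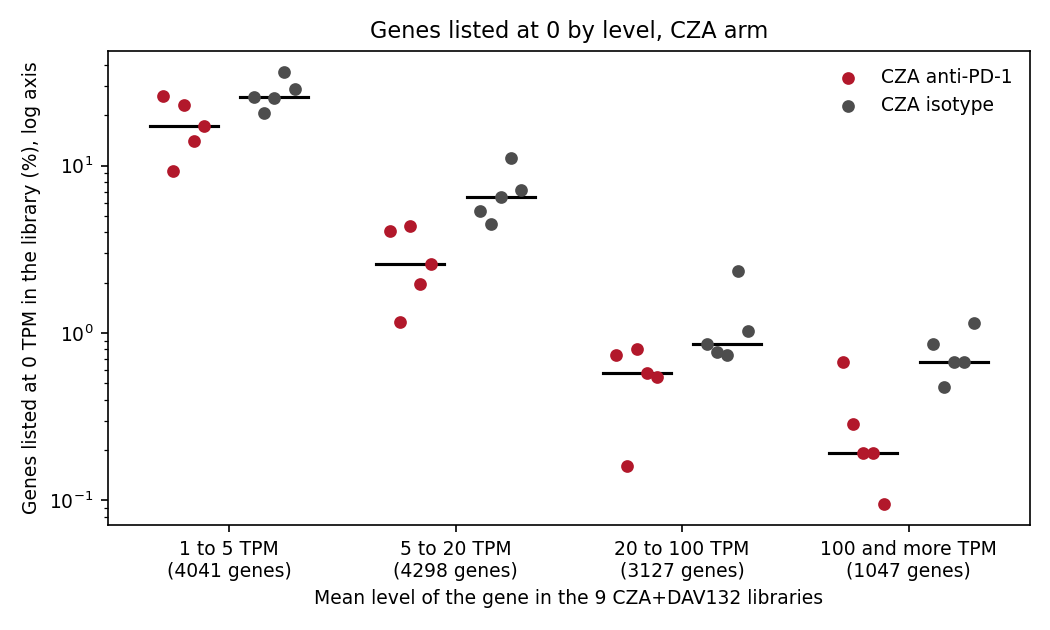
Share of genes listed at 0 TPM (vertical log axis, percent) in each CZA library, for 4 ranges of the gene's mean level in the CZA+DAV132 libraries. Points are libraries, anti-PD-1 to the left and isotype to the right in each range, and bars are medians. In the range of 5 to 20 TPM the anti-PD-1 libraries lie between 1.16% and 4.33%, and the isotype libraries between 4.49% and 11.0%.

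The question put to all genes was which transcripts differed between the antibodies. With a linear model on log2(TPM + 1) over the 19 libraries labelled bulk tumour (limma), 37 of 13326 genes were higher under anti-PD-1 at a Benjamini-Hochberg adjusted p under 0.05, which is 0.278% of the genes tested, and 1 was lower, Uqcrc1 (0.0075%). At an unadjusted p under 0.05 there were 1467 genes higher (11%) and 278 lower (2.09%). The 5 values of one antibody lay wholly above those of the other for 278 genes in favour of anti-PD-1 (2.09%) and for 41 genes in favour of isotype (0.308%). The whole distribution was shifted: over all genes tested, log2 changes had a median of 0.25, and 65.8% of genes were positive. With libraries scaled by median ratios, that median became 0.09 and the split of calls 18 higher and 7 lower, and with quantile normalisation the median was -0.01 with 9 higher and 1 lower. The number of calls also rested on single libraries. Without one anti-PD-1 library it was 9 higher and 1 lower (T982), 8 and 0 (T984), 17 and 0 (T988), 9 and 0 (T989) or 5 and 0 (T990). Without one isotype library it was 111 higher and 8 lower (T983), 72 and 5 (T985), 61 and 2 (T986), 25 and 3 (T987) or 75 and 4 (T991). Among the 9023 tested genes above 0 in all 10 libraries, 16 passed, and the median log2 change of all 9023 was 0.22.

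Most of the 37 genes that rose were low with the isotype antibody. All 37 were above 0 in each anti-PD-1 library, and 33 did not overlap between the groups, beside 2.09% of all genes tested. In the isotype libraries 15 were above 0 in all 5, 4 were listed at 0 in 1 library, 9 in 2, 4 in 3, 4 in 4 and 1 in all 5. Their mean was under 1 TPM with isotype for 21 of the 37. Others were well above 0 there: Slmap, of the STRIPAK phosphatase complex, was at 59.1, 52.3, 116, 185 and 104 TPM in anti-PD-1 libraries, against 40.2, 23.2, 26.4, 10.4 and 5.30 TPM in isotype libraries, without overlap. Taken per library, the median TPM of the 37 genes was 13.3, 11.0, 20.3, 12.6 and 15.6 in the anti-PD-1 libraries, against 0.381, 1.04, 0.286, 0.370 and 0.313 in the isotype libraries. T985, the isotype library with the most genes at 1 TPM, had the highest of the 5 isotype medians. These counts describe genes that the test selected and are no separate support for it.

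**Figure D3:**
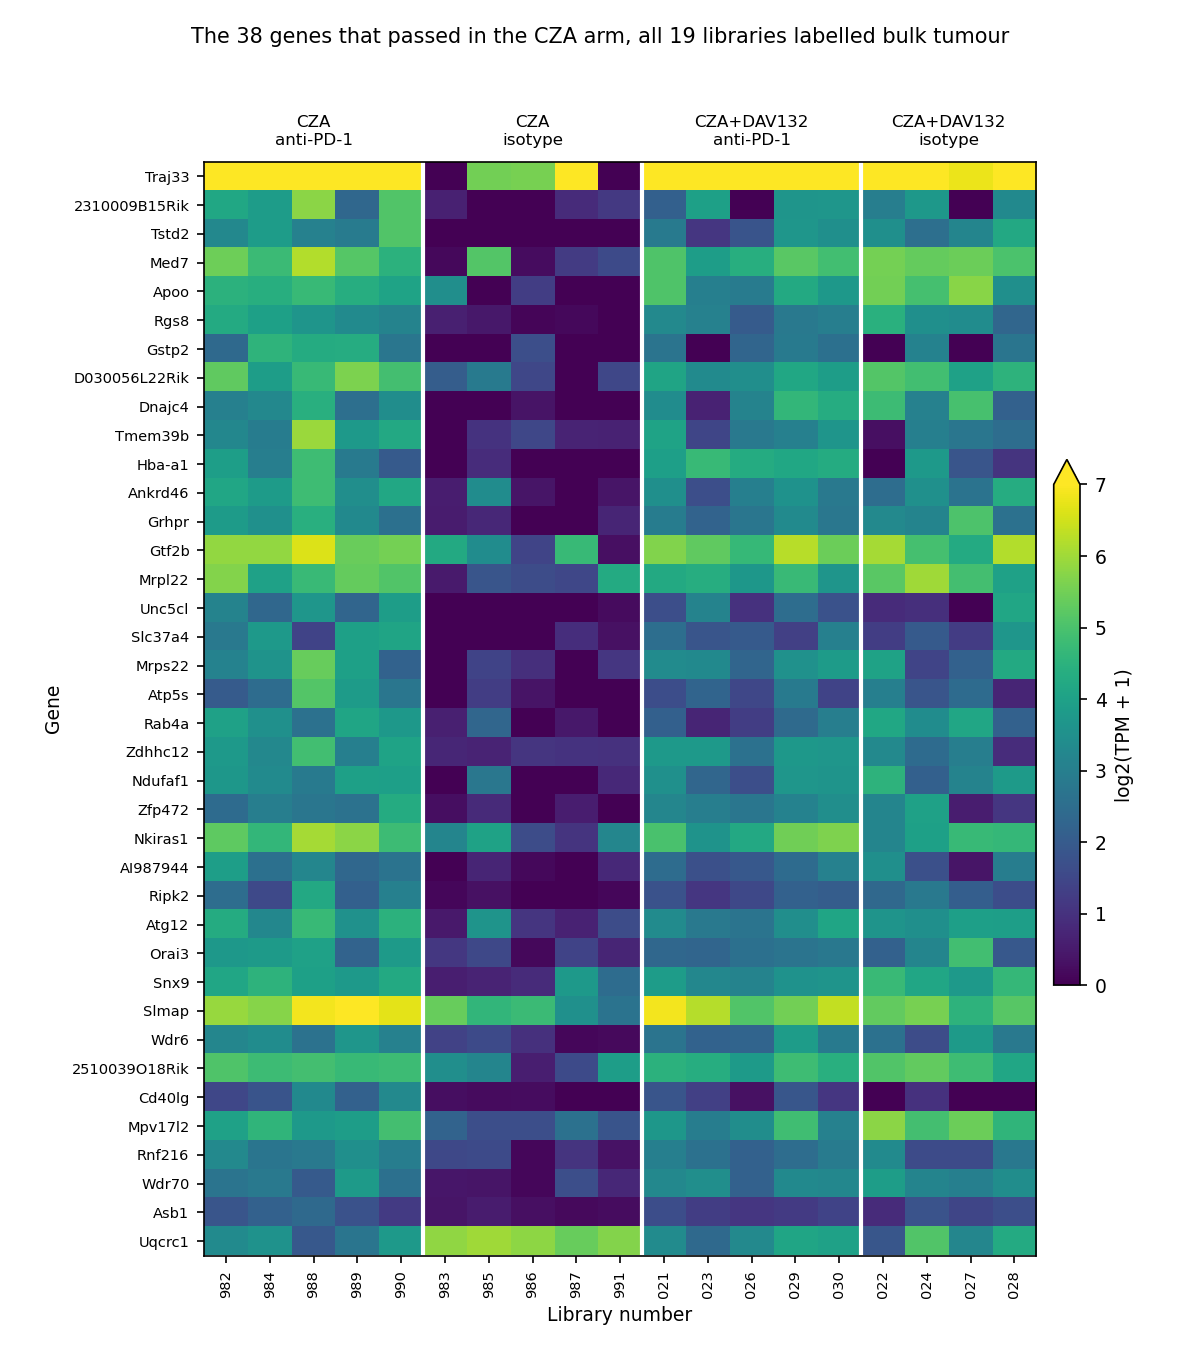
Level as log2(TPM + 1), by colour, of the 38 genes that passed, in the 19 libraries labelled bulk tumour, with anti-PD-1 to the left of isotype in each arm. Rows run from the largest to the smallest log2 change in the CZA arm. For the upper 37 rows most cells of the 5 CZA isotype columns are dark, with per-library medians of 0.286 to 1.04 TPM (Slmap, Gtf2b, most of Traj33, Med7 in T985 and Mrpl22 in T991 are among the brighter cells), and for Uqcrc1, in the last row, the same 5 columns are the brightest.

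The smallest p-value belonged to Rgs8 (ENSMUSG00000042671, chromosome 1, 153653025 to 153700323), whose product shortens signals of G protein-coupled receptors by speeding GTP hydrolysis. It stood at 18.3, 14.7, 11.6, 9.12 and 7.77 TPM in anti-PD-1 libraries, against 0.525, 0.362, 0.0737, 0.102 and 0 TPM in isotype libraries. The lowest anti-PD-1 library, T990, was far above the highest isotype library, T983. The log2 change was 3.41 ± 0.43 SE (limma, adjusted p = 0.00156), and it passed under all 20 alternatives tried. Tstd2 (ENSMUSG00000035495, chromosome 4, 46114746 to 46138694), which encodes a protein with a rhodanese-type sulfurtransferase domain, was at 8.56, 13.5, 7.41, 6.47 and 33.1 TPM in anti-PD-1 libraries, against 0, 0, 0, 0 and 0 TPM in isotype libraries. It was listed at 0 in every isotype library, so no fold is given (adjusted p = 0.00474, limma), and it too passed under all 20 alternatives. One other gene, 1700057G04Rik, was listed at 0 in all 5 isotype libraries and at 1 TPM or more in all 5 anti-PD-1 libraries, without passing (adjusted p = 0.0664, limma), and no gene showed the reverse. Grhpr (ENSMUSG00000035637, chromosome 4, 44981395 to 44990734), which encodes glyoxylate and hydroxypyruvate reductase, was at 13.3, 10.4, 20.3, 9.04 and 4.96 TPM in anti-PD-1 libraries, against 0.442, 0.704, 0, 0 and 0.658 TPM in isotype libraries. The groups stood apart, and the log2 change was 3.13 ± 0.48 SE (limma, adjusted p = 0.00585). D030056L22Rik (ENSMUSG00000047044, chromosome 19, 18713193 to 18718428), left out of the naming rule as a gene with a clone name, was at 38.4, 13.9, 25.1, 48.6 and 28.9 TPM in anti-PD-1 libraries, against 3.20, 6.27, 1.80, 0 and 1.82 TPM in isotype libraries. Its log2 change was 3.30 ± 0.47 SE (limma, adjusted p = 0.00474), and Grhpr and D030056L22Rik each kept their call under 19 of 20 alternatives.

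The remaining genes that rose are grouped by what their products do, a grouping made after their values were known. Of the transcription machinery, Med7 (ENSMUSG00000020397, chromosome 11, 46436925 to 46442721), a subunit of the Mediator complex, was at 42.6, 26.2, 72.5, 34.6 and 21.8 TPM in anti-PD-1 libraries, against 0.0997, 33.9, 0.185, 1.32 and 1.95 TPM in isotype libraries. One isotype library, T985, lay within the anti-PD-1 range, and the other 4 were under 2 TPM (log2 change 3.56 ± 0.67 SE, limma adjusted p = 0.0349). Gtf2b, which encodes the general factor TFIIB, was at 57.1, 57.1, 97.2, 40.8 and 45.6 TPM in anti-PD-1 libraries, against 18.1, 9.66, 1.71, 25.5 and 0.221 TPM in isotype libraries. The groups stood apart, with T986 and T991 nearest to 0 (log2 change 3.03 ± 0.65 SE, limma adjusted p = 0.0498). The zinc finger gene Zfp472 had a log2 change of 2.70.

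A second set encodes mitochondrial proteins, as does Uqcrc1, the 1 gene that fell. The share of such genes among all genes tested was not counted. Apoo (ENSMUSG00000079508, chromosome X, 94367117 to 94417093), part of the complex that shapes the cristae, was at 21.6, 20.0, 25.1, 19.6 and 15.7 TPM in anti-PD-1 libraries, against 9.90, 0, 1.43, 0 and 0 TPM in isotype libraries. It was listed at 0 in 3 isotype libraries, and T983, at 9.90 TPM, was the nearest to the anti-PD-1 range (log2 change 3.46 ± 0.62 SE, limma adjusted p = 0.0326). Mrpl22, of the large subunit of the mitochondrial ribosome, was at 51.2, 14.9, 25.97, 39.6 and 33.4 TPM in anti-PD-1 libraries, against 0.412, 2.62, 2.09, 1.81 and 18.5 TPM in isotype libraries. T991 overlapped the anti-PD-1 libraries (log2 change 3.03 ± 0.56 SE, limma adjusted p = 0.0349). Mrps22, of the small subunit, was at 7.53, 11.0, 40.2, 14.8 and 3.60 TPM in anti-PD-1 libraries, against 0, 1.65, 0.905, 0 and 1.17 TPM in isotype libraries. The groups did not overlap, though anti-PD-1 values spanned 3.60 to 40.2 TPM. Atp5s, a factor of the ATP synthase, Ndufaf1, which helps assemble respiratory complex I, and Mpv17l2, an inner membrane protein, had log2 changes of 2.91, 2.85 and 2.23. In the list of 46 oxidative phosphorylation subunits fixed for this work, 0 rose and 1 fell, with 1 higher (Sdhc) and 3 lower (Uqcrc1, Uqcrq and Ndufa4) at an unadjusted p under 0.05, and its median log2 change was 0.03, which was -0.19 with median-ratio scaling.

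Genes of immune and receptor signalling formed a further set. Cd40lg (ENSMUSG00000031132, chromosome X, 57212143 to 57224042), the CD40 ligand that activated T cells use to license antigen-presenting and B cells, was at 1.82, 2.56, 9.07, 3.48 and 8.80 TPM in anti-PD-1 libraries, against 0.207, 0.145, 0.175, 0 and 0 TPM in isotype libraries. The groups did not overlap, and T987 and T991 were listed at 0 (log2 change 2.28 ± 0.42 SE, limma adjusted p = 0.0328). In the CZA+DAV132 arm Cd40lg was at 0.232 to 2.64 TPM with anti-PD-1 and at 0, 0.988, 0 and 0 TPM with isotype. Ripk2 (ENSMUSG00000041135, chromosome 4, 16122733 to 16163647), the kinase that relays signals of the bacterial sensors NOD1 and NOD2, was at 4.69, 1.93, 17.9, 3.46 and 7.20 TPM in anti-PD-1 libraries, against 0.0877, 0.244, 0, 0 and 0.0953 TPM in isotype libraries. Every isotype library was under 1 TPM and below every anti-PD-1 library (log2 change 2.58 ± 0.45 SE, limma adjusted p = 0.0227). Traj33, a joining segment of the T cell receptor alpha locus, was at 687, 495, 1557, 816 and 611 TPM in anti-PD-1 libraries, against 0, 44.5, 46.6, 608 and 0 TPM in isotype libraries. Its log2 change of 5.52 was the largest of all genes tested (limma, adjusted p = 0.0451). Isotype library T987 lay inside the anti-PD-1 range and 2 others were listed at 0, and because the segment is very short, few reads give it a high TPM. Further genes of this set were Nkiras1, an inhibitor of NF-kB (2.68 on the log2 scale), Orai3, a calcium channel subunit (2.53), Rnf216, a ubiquitin ligase (2.14), and Unc5cl (3.02).

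Of genes for membrane traffic and protein handling, Rab4a, a small GTPase of endosome recycling, was at 15.0, 10.5, 5.09, 16.2 and 12.2 TPM in anti-PD-1 libraries, against 0.536, 3.99, 0, 0.370 and 0 TPM in isotype libraries. T985, at 3.99 TPM, came nearest to the lowest anti-PD-1 library (log2 change 2.91 ± 0.56 SE, limma adjusted p = 0.0357). Zdhhc12, a palmitoyltransferase, was at 12.8, 8.63, 28.3, 7.19 and 15.6 TPM in anti-PD-1 libraries, against 0.669, 0.631, 1.12, 1.02 and 0.981 TPM in isotype libraries. Its anti-PD-1 values all lay above the isotype values, which were near 1 TPM (log2 change 2.90 ± 0.48 SE, limma adjusted p = 0.0157). Atg12, of the autophagy conjugation system, Snx9, of clathrin-mediated uptake, Slmap and Dnajc4, a J-domain co-chaperone, had log2 changes of 2.56, 2.47, 2.37 and 3.27. Metabolic genes besides Grhpr were Slc37a4, the transporter of glucose-6-phosphate into the endoplasmic reticulum (2.97), and Gstp2, a pi-class glutathione transferase (3.32). Gstp2 was at 4.25, 22.4, 18.6, 19.0 and 5.71 TPM in anti-PD-1 libraries, against 0, 0, 2.23, 0 and 0 TPM in isotype libraries. Its copies cannot be separated with certainty: Gstp1, Gstp2 and Gstp3 summed to 140, 173, 86.9, 129 and 152 TPM in anti-PD-1 libraries, against 142, 117, 160.0, 179 and 141 TPM in isotype libraries. The summed level overlapped between the groups, with a log2 difference of -0.14. The other genes that rose were Tmem39b, Ankrd46, Wdr6, Wdr70, Asb1, AI987944, 2310009B15Rik and 2510039O18Rik, with log2 changes from 1.55 (Asb1) to 3.72 (2310009B15Rik).

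Hba-a1 (ENSMUSG00000069919, chromosome 11, 32283511 to 32284465), an adult alpha-globin of red cells, was at 14.2, 6.93, 27.4, 6.25 and 2.95 TPM in anti-PD-1 libraries, against 0, 0.850, 0, 0 and 0 TPM in isotype libraries. It was listed at 0 in 4 isotype libraries (limma, adjusted p = 0.0355). Hba-a2, whose coding sequence is almost the same, was at 3.54, 1.20, 21.1, 32.6 and 4.57 TPM in anti-PD-1 libraries, against 4.80, 12.0, 5.59, 5.15 and 0 TPM in isotype libraries. The 2 genes summed overlapped between the groups, with 17.7, 8.14, 48.5, 38.9 and 7.52 TPM in anti-PD-1 libraries, against 4.80, 12.8, 5.59, 5.15 and 0 TPM in isotype libraries. Over the erythroid list 1 of 6 tested members rose and 0 fell, with 1 higher (Hba-a1) and 1 lower (Alas2) at an unadjusted p under 0.05. The list's summed level was 11.4 to 82.1 TPM in anti-PD-1 libraries and 1.61 to 38.2 TPM in isotype libraries.

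The 1 gene that fell was Uqcrc1 (ENSMUSG00000025651, chromosome 9, 108936633 to 108949623), a core subunit of respiratory complex III. It stood at 9.28, 10.9, 2.80, 5.54 and 12.9 TPM in anti-PD-1 libraries, against 56.5, 62.5, 55.1, 40.1 and 51.5 TPM in isotype libraries. No value was 0, and the highest anti-PD-1 library, T990, stood well below the lowest isotype library, T987 (log2 change -2.67 ± 0.52 SE, limma adjusted p = 0.0374). In the CZA+DAV132 arm it was at 4.21 to 16.2 TPM with anti-PD-1 and at 2.66 to 33.1 TPM with isotype, so all 9 libraries were below the lowest CZA isotype library, and the change there was -0.18 ± 0.55 (SE). The difference between the arms did not pass (log2 difference -2.49, standard error 0.76, limma adjusted p = 0.300). Without any one of the 5 anti-PD-1 libraries the gene no longer passed (limma, adjusted p from 0.0542 to 0.0794), and without any one isotype library it did. The next 9 genes in this direction by p-value, within the naming rule given below, did not pass. Of these 9, 7 did not overlap between the groups, beside 0.308% of all genes tested. They were picked by p-value from this same comparison, so that count is no separate support. Apoe, the apolipoprotein made by macrophages, was at 5.25, 25.8, 13.1, 2.31 and 43.7 TPM in anti-PD-1 libraries, against 184, 92.4, 121, 73.6 and 62.8 TPM in isotype libraries, with a log2 change of -2.96 ± 0.73 SE (limma, adjusted p = 0.0773). The highest anti-PD-1 value, of T990, was below the lowest isotype value, of T991. Fez2 was at 1.67, 4.04, 1.38, 2.93 and 1.83 TPM in anti-PD-1 libraries, against 42.8, 22.7, 31.5, 4.60 and 17.9 TPM in isotype libraries and had an adjusted p of 0.073 (limma). Atad3a, an ATPase of the mitochondrial inner membrane, Fdps, a farnesyl diphosphate synthase, Park7, which encodes DJ-1, Atp5g1, a subunit of the ATP synthase, Timm17a, of the inner membrane import channel, Sra1 and Ints11, of the Integrator complex, had log2 changes of -2.48, -1.31, -0.94, -1.17, -1.22, -1.52 and -1.58 and adjusted p-values from 0.0711 to 0.107 (limma).

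**Figure D4:**
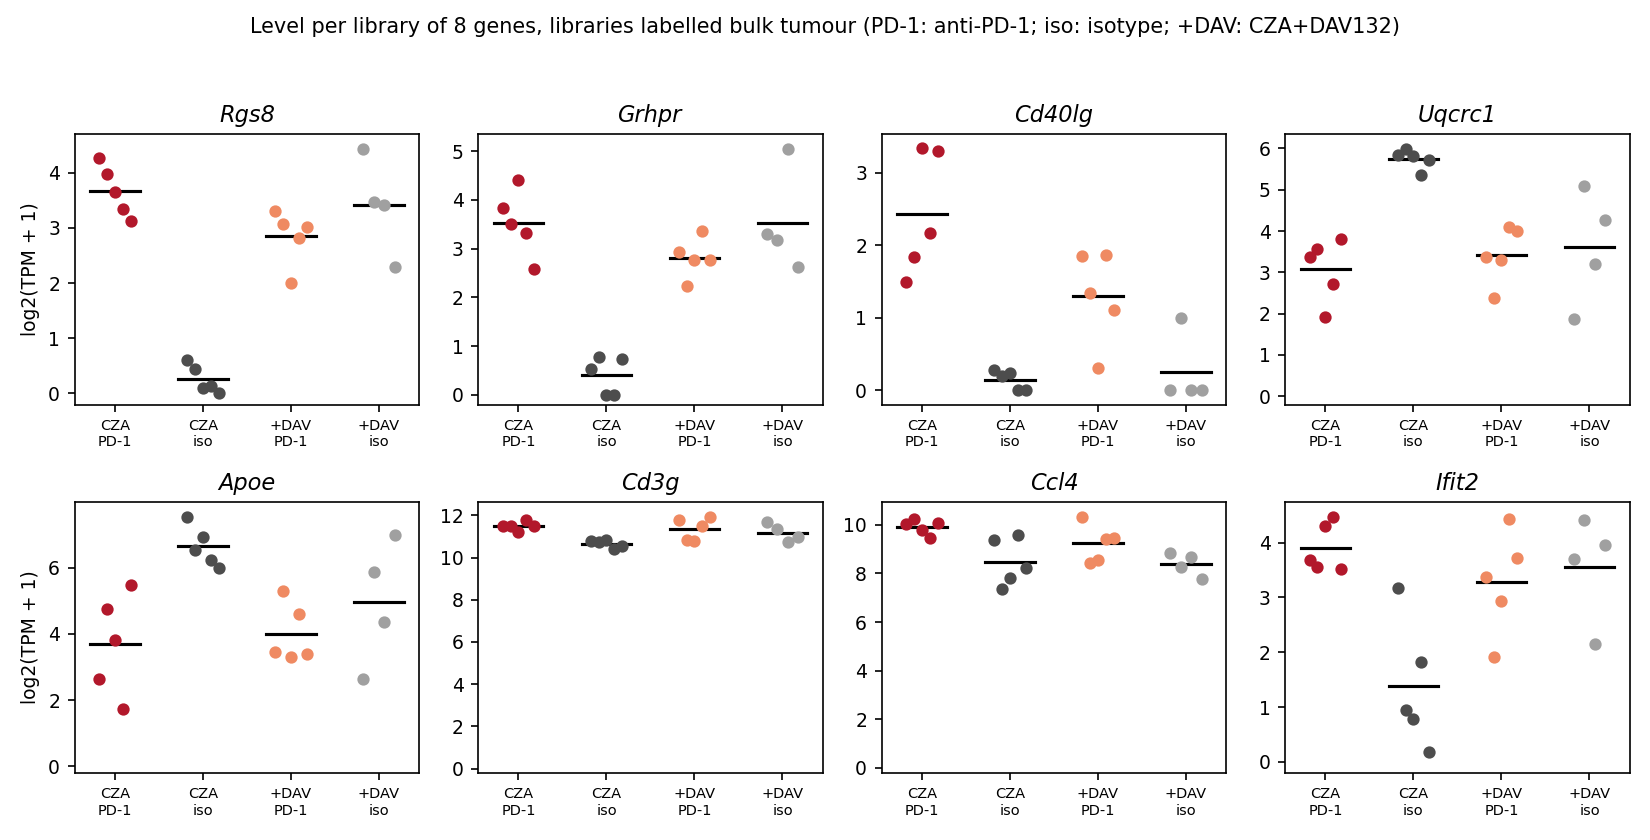
Level as log2(TPM + 1) of 8 genes in the 19 libraries labelled bulk tumour, with anti-PD-1 to the left of isotype in each arm. Points are libraries and bars are group means. Rgs8, Grhpr, Cd40lg and Uqcrc1 passed in the CZA arm, and Apoe, Cd3g, Ccl4 and Ifit2 did not. The CZA isotype points stand apart from the other 3 groups for Rgs8, Grhpr and Uqcrc1.

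The other arm and the sorted cells were then set beside these genes. In the CZA+DAV132 arm, 4 of 13326 genes were higher under anti-PD-1 (0.03%) and 28 lower (0.21%), and the median log2 change of all genes was -0.15 (limma). The 4 were 2 predicted genes, Gm11522 and Gm15536, and the pseudogenes Rpl17-ps5 and Rps19-ps14, looked up after their values were known. One anti-PD-1 library of that arm, T026, had 50.8% of its TPM in repeat-rich entries. Of the 37 genes that rose in the CZA arm, 17 were positive there, their median was -0.12, and 0 passed, with 3 higher and 2 lower at an unadjusted p under 0.05. CZA isotype had the lowest mean of the 4 groups for all 37 genes, against 41.7% of all 13326 tested genes, and CZA anti-PD-1 had the highest mean for 28 of the 37, against 30.4% of all genes. The 37 were chosen by a contrast of these groups, which bears on both counts. Between the arms, the 37 genes had a median log2 difference of 0.66 for anti-PD-1 CZA minus anti-PD-1 CZA+DAV132 and of -2.25 for isotype CZA minus isotype CZA+DAV132, beside 0.19 and -0.21 over all genes. The arms carry different library number ranges, so anything else that differs between T982 to T991 and T021 to T030 cannot be told apart from the arm. The effect of anti-PD-1 itself differed between the arms for 6 genes (0.045%), all higher in CZA, and for 0 in the other direction, with 1215 and 160 genes at an unadjusted p under 0.05 (limma). These were Rab4a, Tstd2, D030056L22Rik, Rgs8, Grhpr and Mpv17l2, with log2 differences of 4.48, 4.40, 4.14, 3.97, 3.85 and 3.81 and adjusted p-values of 0.0236 to 0.0462. With Tstd2 listed at 0 in CZA isotype, the size of its difference depends on the pseudocount. With median-ratio scaling 0 genes passed this test. It also rested on single libraries: without T026, or without any one of T021, T022, T023, T024, T027, T982, T984, T986 and T990, 0 passed, and the count was 2 without T989, 14 without T983 and 18 without T985. Without any one of the other 6 libraries it was 4 to 8. For Rgs8 the CZA+DAV132 libraries lay at 3.03 to 8.89 TPM with anti-PD-1 and at 3.92 to 20.6 TPM with isotype, and for Tstd2 at 1.15 to 11.7 TPM and at 4.87 to 17.6 TPM. In the sorted CD8+ T cells of the CZA arm 2 of 12942 genes were higher (0.0155%) and 0 lower (254 and 407 at an unadjusted p under 0.05, limma). The 2 were Gm12895 and Gm12896, predicted genes with the same log2 change of 1.84 and adjusted p of 0.0425. Of the 37 genes that rose in the tumour libraries all were tested, 18 were positive, their median log2 change was -0.02, and 0 reached an unadjusted p under 0.05.

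Gene lists for the cells and pathways of a tumour under PD-1 blockade were described by their counts. Of 632 distinct genes tested on 40 lists, 3 passed (0.475%), Cd40lg, Hba-a1 and Uqcrc1, beside 38 of 13326 genes (0.285%). Counts below are to be read beside all genes tested, of which 65.8% were positive, and 11% were higher and 2.09% lower at an unadjusted p under 0.05. Of the 20 T cell identity genes, 18 were positive under anti-PD-1 (17 with median-ratio scaling), with a median log2 change of 0.45, beside 0.25 for all genes. Of these genes 0 passed, and Cd3g and Lck reached an unadjusted p under 0.05. Cd3g (ENSMUSG00000002033, chromosome 9, 44969572 to 44980431), a chain of the CD3 signalling complex, was at 2905, 2887, 2386, 3514 and 2926 TPM in anti-PD-1 libraries, against 1773, 1701, 1813, 1368 and 1488 TPM in isotype libraries. The groups did not overlap, but the change of 0.84 ± 0.23 (SE) did not pass (limma, adjusted p = 0.107). Lck, the kinase at the head of T cell receptor signalling, was at 651, 706, 992, 697 and 779 TPM in anti-PD-1 libraries, against 500.1, 493, 580.4, 525 and 447 TPM in isotype libraries and likewise separated the groups without passing (adjusted p = 0.313, limma). Summed over the 20 genes, the list was at 12418, 10913, 12868, 16501 and 15339 TPM in anti-PD-1 libraries, against 8954, 8558, 9097, 9985 and 9299 TPM in isotype libraries. The groups did not overlap, and the log2 difference was 0.55 (exact permutation p = 0.00794, adjusted over 15 marker lists 0.0795). A further 2 of the 15 sums had the same adjusted p. The NK cell sum was 1695 to 2381 TPM in anti-PD-1 libraries and 1514 to 1851 TPM in isotype libraries (log2 difference 0.28, exact p = 0.0159). The endothelial and pericyte sum was 1024 to 3226 TPM in anti-PD-1 libraries and 570.3 to 1057 TPM in isotype libraries (log2 difference 0.98, exact p = 0.0159), and Pecam1, which leukocytes also express, made 99% of it. Of the 5 endothelial genes tested 4 were positive, with a median log2 change of 0.45, and 0 passed. With median-ratio scaling the log2 difference of the T cell sum was 0.33 (exact p = 0.0873), and the T cell list's median over genes was 0.23, beside 0.09 for all genes.

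Of 18 cytotoxic effector genes 15 were positive (13 with median-ratio scaling), or 83.3% beside 65.8% of all genes, with a median log2 change of 0.65. Of them 0 passed, and 5 of them (Gzmd, Gzmf, Gzmg, Ccl3 and Ccl4) were higher at an unadjusted p under 0.05, as were 11% of all genes. Ccl4, a chemokine secreted by activated CD8+ T cells, was at 1050.3, 1199, 885, 699 and 1073 TPM in anti-PD-1 libraries, against 656, 164, 223, 754 and 296 TPM in isotype libraries. T987 of the isotype group overlapped the anti-PD-1 range (log2 change 1.45 ± 0.40 SE, limma adjusted p = 0.114). Ccl3, its neighbour and relative, was at 444, 404, 531, 426 and 459.9 TPM in anti-PD-1 libraries, against 612, 141, 18.4, 162 and 88.6 TPM in isotype libraries (adjusted p = 0.146, limma). Here isotype library T983 was the highest of all 10. Gzmd, a granzyme, was at 111, 49.8, 10.8, 77.0 and 53.3 TPM in anti-PD-1 libraries, against 3.55, 8.90, 50.4, 0 and 2.33 TPM in isotype libraries, with an adjusted p of 0.107 (limma). Gzmd, Gzme, Gzmf and Gzmg are close copies whose reads may be shared out wrongly, and their sum was 1242, 689.6, 105, 837 and 533 TPM in anti-PD-1 libraries, against 595, 201, 96.7, 155 and 206 TPM in isotype libraries, and the groups overlapped. Gzmb and Ifng, the main granzyme and the interferon of CD8+ T cells, had log2 changes of 0.47 and 0.59 and adjusted p-values of 0.574 and 0.473 (limma). Among 17 activation and co-stimulation genes 14 were positive (also with median-ratio scaling), with a median log2 change of 0.69, 1 passing (Cd40lg) and 4 higher at an unadjusted p under 0.05 (Cd40lg, Icos, Irf8 and Cd44). Icos, a co-stimulatory receptor, was at 324, 248, 165, 207 and 231 TPM in anti-PD-1 libraries, against 118, 72.2, 63.3, 170.1 and 93.2 TPM in isotype libraries. Only T987 among the isotype libraries reached the anti-PD-1 range (log2 change 1.23 ± 0.39 SE, limma adjusted p = 0.164).

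Among 17 inhibitory receptor and exhaustion genes 15 were positive, with a median log2 change of 0.46 (12 positive and 0.24 with median-ratio scaling), and 0 passed, also at an unadjusted p under 0.05. Pdcd1, the target of the antibody, was at 267, 238, 157, 79.0 and 115 TPM in anti-PD-1 libraries, against 166, 119, 127, 129 and 127 TPM in isotype libraries. The ranges overlapped (log2 change 0.23 ± 0.38 SE, limma adjusted p = 0.842), and since the antibody binds the protein, its transcript does not check the treatment. Of 14 stem-like and memory genes 5 were positive, with a median of -0.16. Ccr7, the homing receptor of naive and memory cells, was at 22.3, 13.6, 41.3, 50.2 and 29.5 TPM in anti-PD-1 libraries, against 20.2, 61.5, 112, 118 and 86.6 TPM in isotype libraries (log2 change -1.22 ± 0.51 SE, limma adjusted p = 0.301). Tcf7, the transcription factor of stem-like T cells, had a log2 change of -0.56. Of the NK cell list 7 of 13 were positive (median 0.36, and 0.14 with median-ratio scaling, Klrc2 higher at an unadjusted p under 0.05), and regulatory T cell genes had 7 of 10 positive (median 0.43, and 0.22 with median-ratio scaling, Ikzf4 and Il10 likewise), with 0 passing on either list.

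Interferon and antigen presentation lists had medians near or below that of all genes. Of 21 interferon gamma response genes 16 were positive with a median log2 change of 0.27 (12 positive and 0.06 with median-ratio scaling), and 0 reached an unadjusted p under 0.05. Of 30 type I interferon genes 12 were positive with a median of -0.21, and 2 were higher (Ifit2, Xaf1) and 2 lower (Oas1g, Oasl2) at an unadjusted p under 0.05. Ifit2, an interferon-induced inhibitor of translation, was at 11.9, 10.8, 18.7, 21.1 and 10.4 TPM in anti-PD-1 libraries, against 7.98, 0.926, 0.713, 2.52 and 0.131 TPM in isotype libraries. The groups did not overlap, T983 was the highest isotype library, and the gene missed the threshold (log2 change 2.53 ± 0.58 SE, limma adjusted p = 0.0636). Of 22 MHC class I genes 16 were positive with a median of 0.16, which was -0.06 with median-ratio scaling. MHC class II genes had 5 of 12 positive and a median of -0.17, with H2-Oa higher and H2-Aa and H2-Ab1 lower at an unadjusted p under 0.05. H2-Ab1, a chain of the class II molecule of antigen-presenting cells, was at 27.8, 36.1, 45.6, 14.2 and 71.9 TPM in anti-PD-1 libraries, against 131, 116, 196, 52.3 and 106 TPM in isotype libraries (log2 change -1.66 ± 0.55 SE, limma adjusted p = 0.198).

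Macrophage and fibroblast lists had negative medians. Of 22 macrophage and monocyte genes 7 were positive, the median log2 change was -0.68 (-0.85 with median-ratio scaling), 0 passed, and 5 were lower and 0 higher at an unadjusted p under 0.05. These 5 were Apoe, above, and C1qb, Ms4a7, Trem2 and Tyrobp. C1qb, of the first complement component, was at 4.27, 16.3, 24.1, 7.82 and 46.1 TPM in anti-PD-1 libraries, against 41.3, 69.2, 102, 22.02 and 42.9 TPM in isotype libraries. The groups overlapped (log2 change -1.67 ± 0.64 SE, limma adjusted p = 0.273). Trem2, a lipid-sensing receptor of macrophages, was at 0.428, 1.30, 0, 0 and 3.39 TPM in anti-PD-1 libraries, against 23.5, 12.2, 29.5, 0 and 0 TPM in isotype libraries (adjusted p = 0.375, limma). It was listed at 0 in 2 libraries of each group. The list's summed level was 1181 to 1736 TPM in anti-PD-1 libraries and 1327 to 2467 TPM in isotype libraries (exact permutation p = 0.27), but Ly6c2, which CD8+ T cells also express, made 49.3% of it. Adgre1, the F4/80 marker, was listed at 0 in 3 anti-PD-1 and 2 isotype libraries. Fibroblast and fibrosarcoma genes had 7 of 19 positive and a median of -0.55, with S100a4 higher and Fn1 lower at an unadjusted p under 0.05, and their summed level was 2761 to 4194 TPM in anti-PD-1 libraries and 2442 to 4387 TPM in isotype libraries (exact p = 0.556). Vim, which leukocytes also express, made 36.5% of that sum, and S100a4 alone was at 706 to 1643 TPM. The part that fewer macrophages or fibroblasts in a library might have in the other results was not tested.

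**Figure D5:**
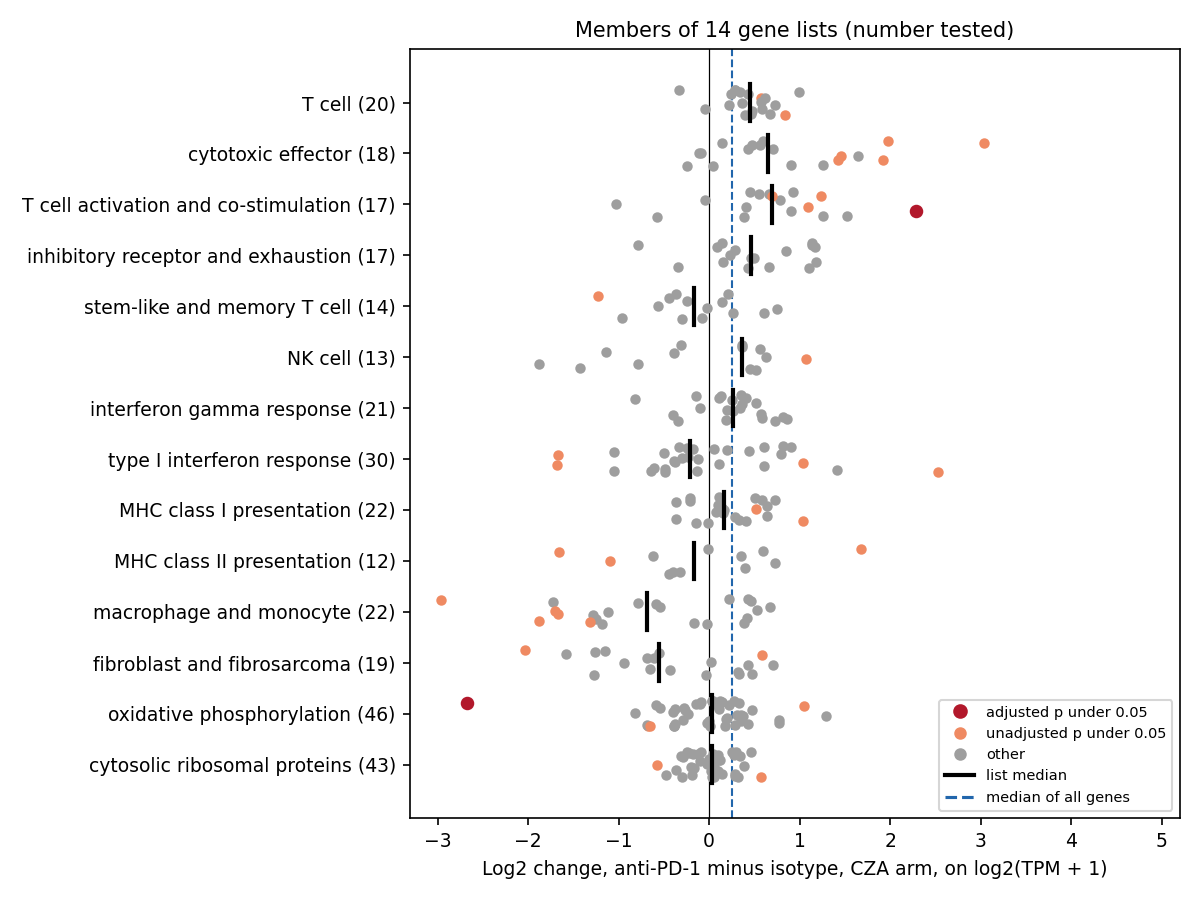
Log2 change, anti-PD-1 minus isotype, in the CZA arm for the members of 14 lists, with the number tested in brackets. Each point is a gene, black bars are list medians, and the dashed line is the median of all tested genes, 0.25. T cell, cytotoxic and activation lists have medians of 0.45, 0.65 and 0.69, and the macrophage and fibroblast lists of -0.68 and -0.55. Of the points drawn, Cd40lg and Uqcrc1 passed.

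Most lists of general cell function named here had medians below that of all genes. The 43 tested cytosolic ribosomal protein genes had a median log2 change of 0.04, 24 proteasome genes 0.10, 40 cell cycle genes 0.22, 21 glycolysis genes -0.02 and 16 heat shock genes -0.01, with 0 passing on each. With median-ratio scaling the medians of the ribosomal, proteasome and cell cycle genes were negative (-0.19, -0.12 and -0.0012), so no direction is given for them. The actin list had 4 of 24 genes higher at an unadjusted p under 0.05 (Arpc1b, Pfn1, Tmsb4x and Msn), its median was 0.10, which was -0.13 with median-ratio scaling. The ATF4 and unfolded protein list had 3 of 18 (Psat1, Sdf2l1 and Creld2) and a median of 0.37 (0.15 with median-ratio scaling), with 0 passing on either list.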

How the data were processed

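RNA from the 10 libraries was depleted of ribosomal RNA and made into strand-specific libraries, per the labels' protocols. The authors deposited 1 table of TPM for the 19 libraries labelled bulk tumour and 1 for the 20 sorted CD8+ libraries, with kallisto 0.45 and GRCm38 named in the submitters' processing notes. TPM keeps no depth, so no counting interval is given. Groups were taken from sample titles and columns from sample descriptions, and 0 value columns were left unused.

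The 13326 genes that reached 1 TPM in 4 or more of the 19 libraries were fitted on log2(TPM + 1) with limma 3.58.1 in R 4.3.3, with 1 mean for each of the 4 groups, a mean-variance trend and Benjamini-Hochberg adjustment over all of them. The pseudocount of 1 shrinks the fold change of genes of low level. The 20 CD8+ libraries were fitted the same way. Library measures and marker sums, as log2(sum + 1), were compared with exact two-sided permutation tests. Coordinates are GRCm38, from GENCODE M21 by symbol. The fit was tested on simulated data.

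Named genes were the 15 largest rises that passed and the 10 smallest p-values among falls, both with a mean of at least 5 TPM over the 10 libraries. The 3 smallest p-values of each list and a fixed panel of 22 genes were added. Left out of the rises and falls were predicted genes, genes with clone names, pseudogenes, antigen receptor segments, mitochondrially encoded genes and small RNAs. Other genes that passed were named after their values were seen. The gene lists and the libraries compared were chosen with earlier results of these data known. The alternatives tried were other pseudocounts, filters, scalings, weights and covariates, and each library left out.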

Additional observations from a re-analysis of the deposited data

Results flagged for a closer look

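Single libraries stood far from the other 4 of their group in 24 of 256 groups of values examined, on the log2(TPM + 1) scale for genes and sums. For normally distributed values chance flags about 1 in 20 groups. That rate does not carry over to genes at 0 in most libraries, and 7 of the 24 were genes above 0 in 1 library and at 0 in the other 4. In the anti-PD-1 group, T988 had 0.405% of its TPM in repeat-rich entries, against at most 0.0516% in the others. T982 had a platelet marker sum of 6.51 TPM, and the next highest was 1.46 TPM. T989 had Orai3 at 3.72 TPM, below the 12.4 TPM of the next lowest. T990 had Col1a1 at 40.8 TPM and Oas1g at 0.253 TPM, where the others had at most 13.0 TPM and 0. T984 had Foxp3 at 1.23 TPM and Adgre1 at 1.80 TPM, where the others had at most 0 and 0.0842 TPM.

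In the isotype group, T985 stood apart most often. It had 13.4% of its TPM in repeat-rich entries and 51.4% in its 100 highest genes (next 47.1%). It was the highest isotype library for 17 of the 37 genes that rose under anti-PD-1, and it stood far above the other 4 for 5 of them: Med7 at 33.9 TPM, Ankrd46 at 9.68 TPM, Rab4a at 3.99 TPM, Atp5s at 1.42 TPM and Hba-a1 at 0.850 TPM. T983 was high for H2-Aa (365 TPM, next 93.7 TPM), Pdcd1 (166 TPM, next 129 TPM), Ikzf4 (7.37 TPM, next 1.43 TPM) and Gzmg (1.56 TPM, the others at 0). T986 was high for Gstp2 (2.23 TPM) and Dnajc4 (0.286 TPM), both at 0 in the other 4, and for Foxp3 (0.983 TPM). T987 had a mast cell marker sum of 27.9 TPM, against at most 0.788 TPM in the others. T991 had the lowest erythroid sum, 1.61 TPM, and was the only isotype library with Unc5cl above 0 (0.159 TPM).

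The anti-PD-1 effect differed between the CZA arm and the CZA+DAV132 arm for 6 genes in the limma test of that difference, with log2 differences of 4.48 for Rab4a, 4.40 for Tstd2, 4.14 for D030056L22Rik, 3.97 for Rgs8, 3.85 for Grhpr and 3.81 for Mpv17l2. All 6 were lowest in the CZA isotype group. Tstd2 was listed at 0 there, so the size of its value depends on the pseudocount.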

How the results depend on the processing

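The number of genes that passed (37 higher, 1 lower) moved with most settings. It was 6 and 0 with the 10 CZA libraries alone, 96 and 1 with a pseudocount of 0.1, 9 and 0 with no filter, 23 and 1 at a mean of at least 5 TPM, 13 and 1 among genes above 0 in all 19 libraries, 18 and 7 with median-ratio scaling, 9 and 1 with quantile normalisation, 6 and 0 with array weights and 12 and 1 with the number of genes above 0 as a covariate. Leaving out 1 library gave 5 to 111 higher and 0 to 8 lower. Of the 38 genes, 19 still passed with median-ratio scaling and 4 with the 10 CZA libraries alone. The cause of these changes was not tested. For the 53 named gene results, 1126 alternatives gave 0 reversals, 631 the same call, 488 a lost call and 7 a gained one. The difference between the arms (6 genes) was 3 with no filter, 3 at a mean of at least 5 TPM, 1 among genes above 0 in all 19 libraries, 0 with median-ratio scaling, 0 with quantile normalisation, 1 without repeat-rich entries and 3 with the covariate, and 0 to 18 with 1 library left out.

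The difference in genes above 0 (802.2 genes, exact p = 0.175) was 1425.4 genes at 1 TPM and 1011.8 genes at 5 TPM (exact p = 0.00794 for each), and 508.6 to 1096 genes with 1 library left out. At 1 TPM it was 1177 genes with median-ratio scaling (exact p = 0.0159) and 1230.0 to 1624 genes with 1 library left out. The T cell marker sum had a log2 difference of 0.33 with median-ratio scaling (exact p = 0.0873) and 0.48 to 0.63 with 1 library left out, settings chosen after seeing the data. No paired analysis was possible because the groups share no replicate numbers. Depth is unknown, so whether a gene listed at 0 was missed for lack of reads was not tested.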
